A study of Rattus norvegicus with 28 samples.

Results

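The nerve crush effect shared by transgenic and wild-type rats was examined in the striatum, the input nucleus of the basal ganglia. All 28 of the 28 libraries of the study entered it, 12 from rats with a crushed sciatic nerve and 16 from naive rats. For each gene the effect was the mean of 2 differences, crush against naive in transgenic (TG) rats and crush against naive in wild-type (wt) rats. The study models DYT-TOR1A dystonia, a movement disorder caused by a deletion in the gene of torsinA, and asks which genes differ in the striatum of these rats. The 4 groups were TG crush (6 libraries), TG naive (8), wt crush (6) and wt naive (8), each library with a number of its own. The numbers run in blocks, TG naive 187 to 194, wt naive 195 to 202, wt crush 203 to 210 and TG crush 214 to 226. Every naive number is below every crush number. What the numbers stand for is not given, and any order that follows them cannot be told apart from crush. TG rats have the genotype label {delta}ETorA, and the promoter of the transgene and the age of the rats are not given in the sources used here. All rats were male, and the crush was made on the right sciatic nerve for 30 seconds. Every library has the time label 12 weeks post injury, the naive ones too. The labels do not say whether each library is a separate animal, and the p-values rest on the spread among libraries, which may be in part technical.

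Of 20 circadian clock genes tested, 13 were higher and 3 lower with crush when averaged over both genotypes, and 16 were called within TG rats and 5 within wt rats. These 20 are repressors, activators and output factors, and a further list of 8 clock kinases and ligases had 1 call. Lower calls included 64 of 79 cytosolic ribosomal protein genes, 15 of 40 matrix genes and 11 of 22 astrocyte markers, against 9.45% of all genes tested. The gene lists were chosen with earlier results of these data known, so these counts are a description and no test. In the clock the transcription factors CLOCK and BMAL1 (gene Arntl), or NPAS2 in place of CLOCK, bind E-box sequences and switch on Per, Cry, Nr1d1, Nr1d2, Ciart and the output factor Dbp. The PER, CRY and other repressor proteins then switch the activators off, and the REV-ERB receptors encoded by Nr1d1 and Nr1d2 hold down Arntl through RORE sequences. PAR bZIP factors such as DBP drive further genes through D-box sequences, so that repressor and activator RNAs peak at different times of day. Striatal cells run such a clock, and rats were housed under a 12-hour light and dark cycle per the labels. No source used here gives the time of day at which tissue was taken, and its part in the results was not tested.

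Promoter sequences of 4 clock genes are shown, picked because they hold letters through which this loop is known to work. They are RefSeq sequences of the build GRCr8, 250 bases before to 50 bases after the annotated start. Capitals mark the E-box CACGTG, the D-box TTATGTAA or the RORE core, TAGGTCA or TGGGTCA, each searched on both strands with no overlap between motifs. The Ciart promoter (chr2:186112197-186112496, minus strand) holds 3 E-boxes, at positions -93, -35 and -21 from the start. The Bhlhe41 promoter (chr4:180569306-180569605, minus strand) holds 1 E-box at -48. In Per2 (chr9:99496944-99497243, minus strand) a D-box lies at -192. In Arntl, which RefSeq lists as Bmal1 (chr1:176766078-176766377, plus strand), a RORE core lies at -16.
Ciart: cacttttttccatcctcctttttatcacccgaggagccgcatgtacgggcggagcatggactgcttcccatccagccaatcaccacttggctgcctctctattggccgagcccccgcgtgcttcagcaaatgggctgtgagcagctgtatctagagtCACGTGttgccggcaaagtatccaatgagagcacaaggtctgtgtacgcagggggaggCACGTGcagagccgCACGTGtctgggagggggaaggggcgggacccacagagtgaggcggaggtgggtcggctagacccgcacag
Bhlhe41: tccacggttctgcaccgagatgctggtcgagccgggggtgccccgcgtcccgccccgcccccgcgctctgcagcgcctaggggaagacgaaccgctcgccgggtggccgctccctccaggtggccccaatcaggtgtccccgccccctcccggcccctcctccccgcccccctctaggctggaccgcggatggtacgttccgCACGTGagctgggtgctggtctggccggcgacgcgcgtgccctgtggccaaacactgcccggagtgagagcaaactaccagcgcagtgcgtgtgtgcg
Per2: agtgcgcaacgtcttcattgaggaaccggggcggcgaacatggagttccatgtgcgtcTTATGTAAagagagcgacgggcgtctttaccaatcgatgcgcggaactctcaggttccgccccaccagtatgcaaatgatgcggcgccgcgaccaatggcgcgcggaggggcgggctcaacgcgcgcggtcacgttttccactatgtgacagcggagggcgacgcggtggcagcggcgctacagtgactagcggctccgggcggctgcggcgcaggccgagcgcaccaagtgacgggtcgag
Arntl: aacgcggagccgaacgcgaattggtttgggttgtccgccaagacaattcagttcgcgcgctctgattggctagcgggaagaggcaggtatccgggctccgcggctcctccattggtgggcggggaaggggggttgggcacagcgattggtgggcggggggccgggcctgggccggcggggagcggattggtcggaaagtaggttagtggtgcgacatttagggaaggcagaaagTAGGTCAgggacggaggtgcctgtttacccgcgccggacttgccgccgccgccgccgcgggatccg
Of 27457 rat promoters in the RefSeq table, 6.65% held the E-box, 0.881% the D-box and 6.51% the RORE core. Promoters were matched for 17 of 20 clock genes tested and for 11 of the 13 that rose with crush. An E-box was held by 4 of the 17 (23.5%), Ciart, Bhlhe41, Bhlhe40 and Tef, all among the 11 that rose (36.4%). Of the genes named above as switched on through E-boxes, Per1, Per2, Per3, Cry2, Nr1d1, Nr1d2 and Dbp held none in this window. The D-box was held by 1 of the 17 (5.88%), Per2. The RORE core was held by 1 of the 17 (5.88%), Arntl, near the share of all promoters. A promoter was matched for 11851 of 16742 tested genes, of which 9.14% held an E-box, and for 428 of the 592 higher calls, of which 11.2% did. These matches cover under 80% of their genes, so a comparison with them is void. These matches describe the letters in the window and are no evidence of binding.

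Across all genes, more fell than rose with crush, and most changes were small. Levels are given in RPM, reads per 1000000 reads assigned to genes, which are not corrected for gene length. Changes are on the scale of log2 (RPM + 0.5), which understates the change of genes with few reads. Of 39538 genes in the table, 16742 had at least 1 RPM in at least 6 libraries and were tested with limma. At an adjusted p under 0.05, 2174 genes were called, which is 13.0% of those tested. Of these, 592 (3.54%) were higher and 1582 (9.45%) lower in crush rats. The median size of a called change was 0.20 for the higher and 0.21 for the lower genes on the log2 scale. Changes of at least 0.5 numbered 18 higher and 47 lower. The split depended on scaling: 27.2% of calls were higher as computed here, 47.7% with median-of-ratios rescaling and 45.6% with quantile normalization.

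The total also changed with the libraries left out and with a covariate of cell markers. It was 1166 without TG crush replicate 222, 1397 without TG crush replicate 220, 1396 without wt crush replicate 210 and 3802 without TG crush replicate 223. Markers of spiny projection neurons, the main cell type of the striatum, were present in every library. None of the 21 tested was called by limma or by limma-voom, and 6 had an unadjusted p under 0.05. Without TG crush replicate 223, 5 were called higher, and 1 or 2 were without wt naive replicate 196 or 198 or TG naive replicate 187 or 188. All 21 had a positive log2 change for the average, with a median of 0.22, which came from wt rats (median 0.43) more than from TG rats (0.01). Their summed level was 10398 to 18896 RPM in TG crush, 9918 to 17620.2 in TG naive, 16001 to 19022 in wt crush and 8819 to 18550.4 in wt naive libraries. The cortical neuron gene Slc17a7 exceeded 20 RPM in 1 TG crush, 1 TG naive, 0 wt crush and 3 wt naive libraries. Without these 5 libraries 574 genes were called, and 1068 were called when the level of the spiny neuron markers was a covariate. Leaving out libraries changes both their number and the tissue makeup, and which of these lowered the count was not tested. In bulk tissue fewer cells of a type and less RNA per cell cannot be told apart, for any of these results.

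The crush effects in the 2 genotypes come from libraries that do not overlap, so they can be set side by side. Over the 16742 genes the change in TG rats and the change in wt rats correlated with r = 0.36 (Pearson) and rho = 0.40 (Spearman), given as a description across genes, which are not independent replicates. The 2 changes had the same sign for 65.6% of genes tested. Among the called genes, 1096 (6.55% of those tested) had an unadjusted p under 0.05 with the same sign in each genotype, 226 higher (1.35%) and 870 lower (5.20%). Within TG rats 570 genes (3.40%) were called, 193 higher (1.15%) and 377 lower (2.25%). Within wt rats 28 (0.167%) were called, 7 higher (0.0418%) and 21 lower (0.125%). The 19 genes called in both, all with the same sign, were 3.33% of the TG calls and 67.9% of the wt calls. For 1674 genes the average was called although neither genotype alone was. Before adjustment the genotypes were close, with a limma p under 0.05 for 3342 genes in TG and 3652 in wt rats. Among higher calls for the average, the median log2 change was 0.22 in TG and 0.17 in wt rats. Among lower calls it was -0.21 in TG and -0.20 in wt rats. The numbers called within each genotype thus do not rank the genotypes by size of effect.

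**Figure D1:**
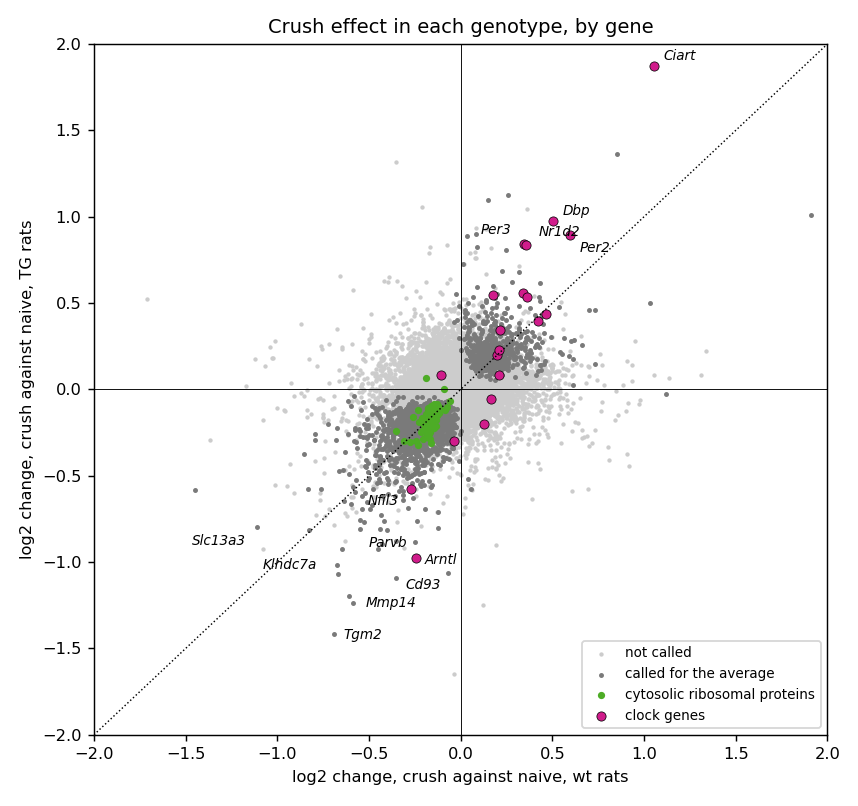
Crush effect of each gene in TG rats (vertical axis) against the effect in wt rats (horizontal axis), both as log2 changes of crush against naive, with 3 genes beyond the axes left out. Clock genes lie at both ends of the cloud, Ciart at 1.87 in TG and 1.05 in wt rats, and ribosomal protein genes form a tight group on the lower left.

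Libraries separated completely for a handful of genes. All 12 crush libraries lay above or below all 16 naive libraries for 10 genes, 0.0597% of those tested, 5 (0.0299%) in each direction. Within TG rats 130 genes (0.776%) separated, 38 with crush higher (0.227%) and 92 with crush lower (0.550%). Within wt rats 116 (0.693%) did, 22 with crush higher (0.131%) and 94 with crush lower (0.561%). The 5 higher genes were Nr1d2, Ciart, Dbp, Bhlhe41 and Per3, each a clock gene. Lower in every crush library were Tgm2, Parvb, Mmp14, Dhrs3 and Creb3l1. Dhrs3 and Creb3l1, and Plekhd1, Plcd4 and Farp1 below, were picked for this separation after their values were seen. Dhrs3 is a retinal reductase and Creb3l1 a transcription factor released from the endoplasmic reticulum membrane. Within each genotype taken alone, 15 genes (0.0896%) separated in the same direction, the 10 above together with Klhdc7a, Plekhd1, Tmem140, Plcd4 and Farp1, all lower.

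The 20 clock genes tested are the lists of repressors, activators and PAR bZIP factors. Of these, 13 rose, 3 fell and 4 did not pass, so 80.0% were called against 13.0% of all genes. Their median log2 change was 0.32, against -0.02 for all genes tested. The lists were chosen with earlier results of these data known, so these comparisons are a description and no test. Of 8 clock kinases and ligases, a list kept apart, 1 rose and 0 fell, near the 13.0% of all genes, with a median of 0.04. Of the 12 repressors 10 rose, as did all 3 PAR bZIP factors, while the repressor Nfil3 and the activators Arntl and Npas2 fell. Within TG rats 16 of the 20 were called and within wt rats 5. These 13 higher calls held under all 40 alternatives computed, and so did the call of Nfil3. The call of Arntl held in the 39 in which it was tested. Npas2 lost its call in 9 of 40.

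Ciart, a repressor of CLOCK and BMAL1 whose promoter is shown above with 3 E-boxes, had the largest change of the clock genes. TG crush libraries held 14.4 to 23.3 RPM of Ciart with a median of 17.9, against 2.44 to 5.55 with a median of 5.11 in TG naive libraries. In wt crush libraries Ciart was at 12.5 to 18.8 RPM with a median of 16.3, against 6.11 to 10.8 with a median of 6.70 in wt naive libraries. Every crush library was above every naive library. The log2 change was 1.46 (SE 0.11, limma adjusted p = 2.91e-10), 1.87 (SE 0.15) in TG and 1.05 (SE 0.15) in wt rats.

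Nr1d2 encodes REV-ERB beta, a nuclear receptor that represses Arntl. It was at 111 to 131 RPM in TG crush libraries (median 118) and at 58.9 to 72.0 in TG naive libraries (median 66.9). The wt crush libraries held 103 to 118 RPM (median 107) and the wt naive libraries 75.4 to 94.6 (median 86.0). Both genotypes separated without overlap, and the TG naive libraries lay lowest of all. Nr1d2 had the lowest p of any gene, with a log2 change of 0.60 (SE 0.04, limma adjusted p = 1.07e-11). Its rise was larger in TG rats (0.83, SE 0.05) than in wt rats (0.36, SE 0.05). This difference of 0.48 (SE 0.07) was the single interaction called among 16742 genes (0.00597%, limma adjusted p = 0.00746), while 1245 (7.44%) had an unadjusted p under 0.05. It lost its call without the 5 libraries high in Slc17a7 (0.46, adjusted p = 0.241).

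The related receptor gene Nr1d1, which encodes REV-ERB alpha, rose by less. TG crush libraries held 85.9 to 126 RPM of it (median 103) and TG naive libraries 61.1 to 81.7 (median 72.8), with no overlap. In wt rats the crush libraries at 122 to 131 RPM (median 127) overlapped the naive range of 82.7 to 122 (median 99.6) through a single library. The log2 change was 0.45 (SE 0.06, limma adjusted p = 4.12e-05). All wt crush libraries but the lowest were above all naive libraries of either genotype, and most TG crush libraries overlapped the wt naive range.

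The PERIOD proteins form the repressor complex of the clock, and all 3 of their genes rose. Per2 was at 30.1 to 43.8 RPM in TG crush (median 32.2) and 12.8 to 23.1 in TG naive libraries (median 18.1). In wt crush libraries it was at 22.9 to 38.1 RPM (median 30.2), against 14.4 to 28.6 (median 19.5) in wt naive libraries. TG libraries separated and wt libraries overlapped, and the log2 change was 0.74 (SE 0.09, limma adjusted p = 6.2e-06). Per3 held 42.7 to 53.1 RPM in TG crush (median 45.5) and 22.6 to 34.1 in TG naive libraries (median 25.1). Its wt crush libraries were at 37.6 to 43.8 RPM (median 40.7) and its wt naive libraries at 27.8 to 37.4 (median 32.5). All crush libraries were above all naive ones for Per3, with a log2 change of 0.59 (SE 0.06, limma adjusted p = 4.51e-08). Per1 overlapped in both genotypes and had a log2 change of 0.41 (SE 0.08, limma adjusted p = 0.00168), nearly the same in TG (0.40) and wt rats (0.42).

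Cryptochromes bind the PER proteins in the repressor complex. Cry2 rose by 0.20 (SE 0.03, limma adjusted p = 0.000512), with a log2 change of 0.20 in each genotype. Cry1 did not pass (log2 change -0.04, SE 0.07, adjusted p = 0.737). Bhlhe41 and Bhlhe40 encode the DEC repressors, which compete for E-boxes. Bhlhe41 was at 141 to 168 RPM in TG crush (median 154), 87.2 to 118 in TG naive (median 107), 141 to 157 in wt crush (median 152) and 108 to 128 in wt naive libraries (median 116). The crush ranges of the 2 genotypes nearly coincided and lay above both naive ranges, with a log2 change of 0.45 (SE 0.04, limma adjusted p = 9.58e-09). Bhlhe40 changed by 0.36 (SE 0.07, limma adjusted p = 0.00168) and separated in TG rats alone. Cipc, a repressor of CLOCK, changed by 0.22 (SE 0.03, limma adjusted p = 0.000143), 0.23 in TG and 0.21 in wt rats.

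Dbp is an output factor with a strong daily rhythm in many tissues. TG crush libraries held 286 to 358 RPM of Dbp (median 316) and TG naive libraries 123 to 196 (median 166). The wt crush libraries were at 283 to 322 RPM (median 307) and the wt naive libraries at 182 to 266 (median 210). No crush library overlapped a naive one, and the log2 change was 0.74 (SE 0.06, limma adjusted p = 6.72e-09). Hlf and Tef, the other 2 PAR bZIP factors, had log2 changes of 0.45 (SE 0.08, limma adjusted p = 0.00128) and 0.28 (SE 0.04, limma adjusted p = 3.69e-05). Sphk2, a sphingosine kinase gene next to Dbp on the opposite strand of chromosome 1, fell by 0.38 (SE 0.04, limma adjusted p = 6.54e-07). Dbp ends at 101692845 and Sphk2 spans 101692972 to 101700604 (Rnor_6.0), and since no source used here states the strand setting of the read counting, reads beyond their facing ends are uncertain.

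The activator Arntl moved the other way. It was at 15.5 to 25.4 RPM in TG crush libraries (median 23.0), against 33.7 to 57.8 in TG naive libraries (median 43.1). In wt crush libraries Arntl was at 26.5 to 32.6 RPM (median 29.9), against 29.3 to 45.8 (median 33.5) in wt naive libraries. TG libraries separated fully, whereas the wt ranges overlapped. Its log2 change was -0.61 (SE 0.08, limma adjusted p = 2.42e-05), -0.98 (SE 0.11) in TG rats and -0.25 (SE 0.11, adjusted p = 0.214) in wt rats. Nfil3, a repressor that binds D-boxes, fell by 0.42 (SE 0.09, limma adjusted p = 0.00315) and Npas2 fell by 0.17 (SE 0.05, limma adjusted p = 0.0328). Clock (0.06), Rora (0.14) and Rorb (-0.01) did not pass. Of the 20 clock genes, 15 had a change larger in size in TG than in wt rats, 14 of them among the 16 called. For 11 of the 20 the limma interaction had an unadjusted p under 0.05, against 7.44% of all genes. Nr1d2 was the only member whose difference passed after adjustment.

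**Figure D2:**
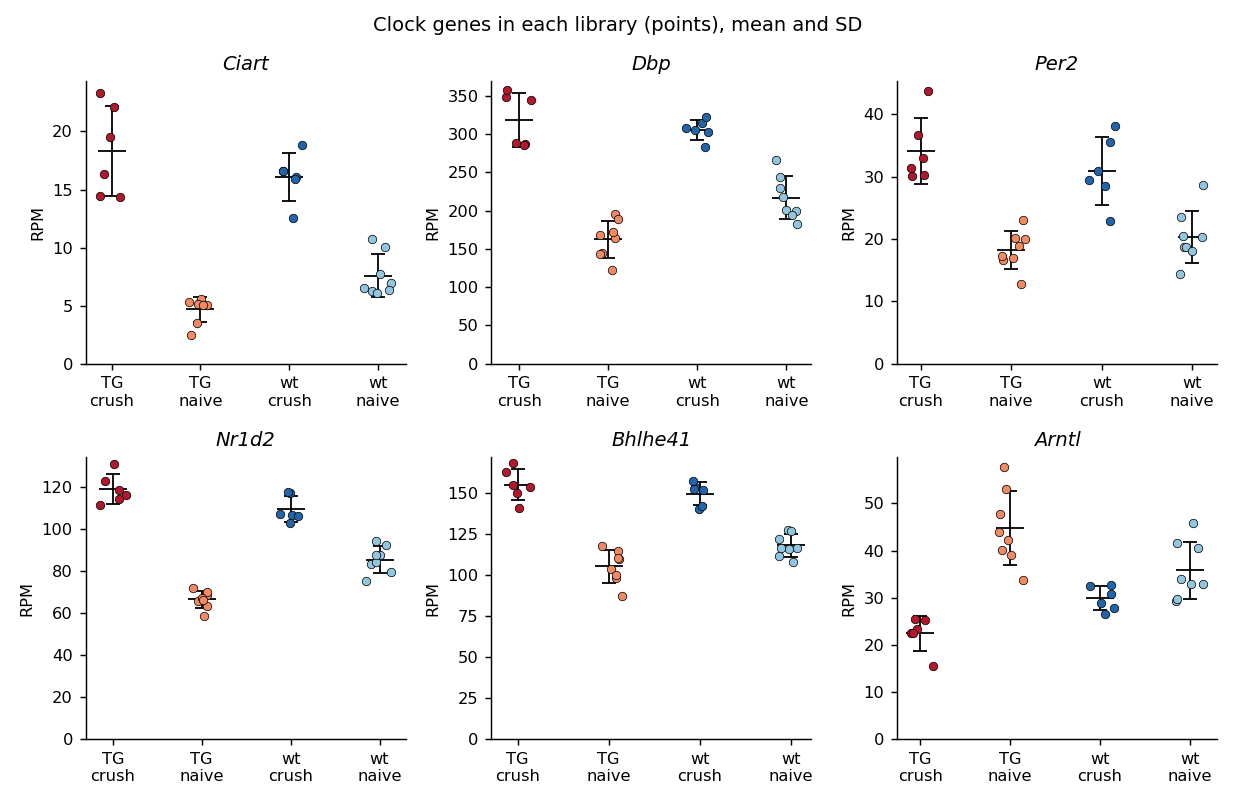
RPM of 6 clock genes in each library (points) of the TG crush, TG naive, wt crush and wt naive groups, with the mean (long line) and SD (whiskers). For Ciart, Dbp, Nr1d2 and Bhlhe41 all crush libraries lie above all naive libraries, while Arntl is lower in TG crush than in TG naive libraries and overlaps in wt rats.

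Genes outside the core clock that are rhythmic in many tissues moved in smaller number. Of 10 tested, 4 rose and 1 fell, against 3.54% higher and 9.45% lower of all genes. Coq10b, of the coenzyme Q pathway, changed by 0.36 (SE 0.05, limma adjusted p = 0.000109). Usp2, a ubiquitin protease, changed by 0.33 (SE 0.07, limma adjusted p = 0.00279), and Wee1, a kinase that holds cells before mitosis, by 0.32 (SE 0.06, limma adjusted p = 0.00157). Leo1, of an elongation complex, fell by 0.18 (SE 0.04, limma adjusted p = 0.0101). Rbm3, which encodes an RNA-binding protein induced by mild cold, was at 27.8 to 52.0 RPM in TG crush (median 34.6) and 16.2 to 26.8 in TG naive libraries (median 20.3). The wt crush libraries held 32.5 to 36.4 RPM of Rbm3 (median 33.0) and overlapped the wt naive libraries at 24.2 to 37.7 (median 27.5). Its log2 change was 0.53 (SE 0.08, limma adjusted p = 0.000143). The other cold-inducible genes tested did not pass, Cirbp among them (0.02, adjusted p = 0.83).

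The genes that fell most, named one by one, had varied roles. Tgm2 encodes tissue transglutaminase, an enzyme that crosslinks proteins. It was at 7.99 to 12.4 RPM in TG crush libraries (median 9.87) and 22.6 to 34.0 in TG naive libraries (median 27.9). The wt crush libraries held 12.7 to 17.9 RPM (median 14.1) and the wt naive libraries 18.1 to 26.2 (median 24.3). The highest crush library, a wt one at 17.9 RPM, lay just under the lowest naive library at 18.1. Tgm2 fell by 1.05 (SE 0.07, limma adjusted p = 4.2e-11), with log2 changes of -1.42 in TG and -0.69 in wt rats.

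Parvb, a focal adhesion gene that links integrins to actin, was at 42.3 to 52.9 RPM in TG crush (median 50.3) and 75.5 to 93.7 in TG naive libraries (median 87.4). In wt rats the crush libraries held 52.1 to 61.6 RPM (median 55.3) and the naive libraries 68.3 to 96.3 (median 82.0). No library overlapped across the injury groups. Parvb fell by 0.68 (SE 0.05, limma adjusted p = 1.66e-10).

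Mmp14, a membrane-bound matrix protease, was at 4.29 to 5.90 RPM in TG crush (median 5.36) and 10.5 to 18.6 in TG naive libraries (median 13.1). Its wt crush libraries stood at 5.71 to 7.23 RPM (median 6.0) and its wt naive libraries at 7.58 to 13.5 (median 9.37). All crush libraries were below all naive libraries, with a log2 change of -0.91 (SE 0.08, limma adjusted p = 9.67e-09). Cd93, a receptor of endothelial cells, was at 5.41 to 9.54 RPM in TG crush (median 6.78) and 13.8 to 17.1 in TG naive libraries (median 15.7). In wt libraries the crush range of 8.24 to 12.4 RPM (median 10.1) overlapped the naive range of 10.6 to 16.3 (median 13.8). Cd93 fell by 0.72 (SE 0.08, limma adjusted p = 5.16e-07).

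Cdkn1a encodes p21, which halts the cell cycle. TG crush libraries held 5.05 to 8.66 RPM of it (median 6.13) and TG naive libraries 11 to 21.3 (median 14.9). The wt crush libraries at 6.33 to 8.26 RPM (median 7.33) overlapped the wt naive libraries at 5.58 to 18.3 (median 12.3), because a single wt naive library lay below them. The log2 change was -0.90 (SE 0.12, limma adjusted p = 3.85e-05). Klhdc7a, a kelch domain gene, was at 8.70 to 12.6 RPM in TG crush (median 9.76) and 18.9 to 30.1 in TG naive libraries (median 21.1). It separated in wt rats too, at 8.64 to 11.7 RPM in wt crush (median 10.5) and 12.6 to 18.8 in wt naive libraries (median 17.4). Klhdc7a fell by 0.87 (SE 0.07, limma adjusted p = 4.39e-09).

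**Figure D3:**
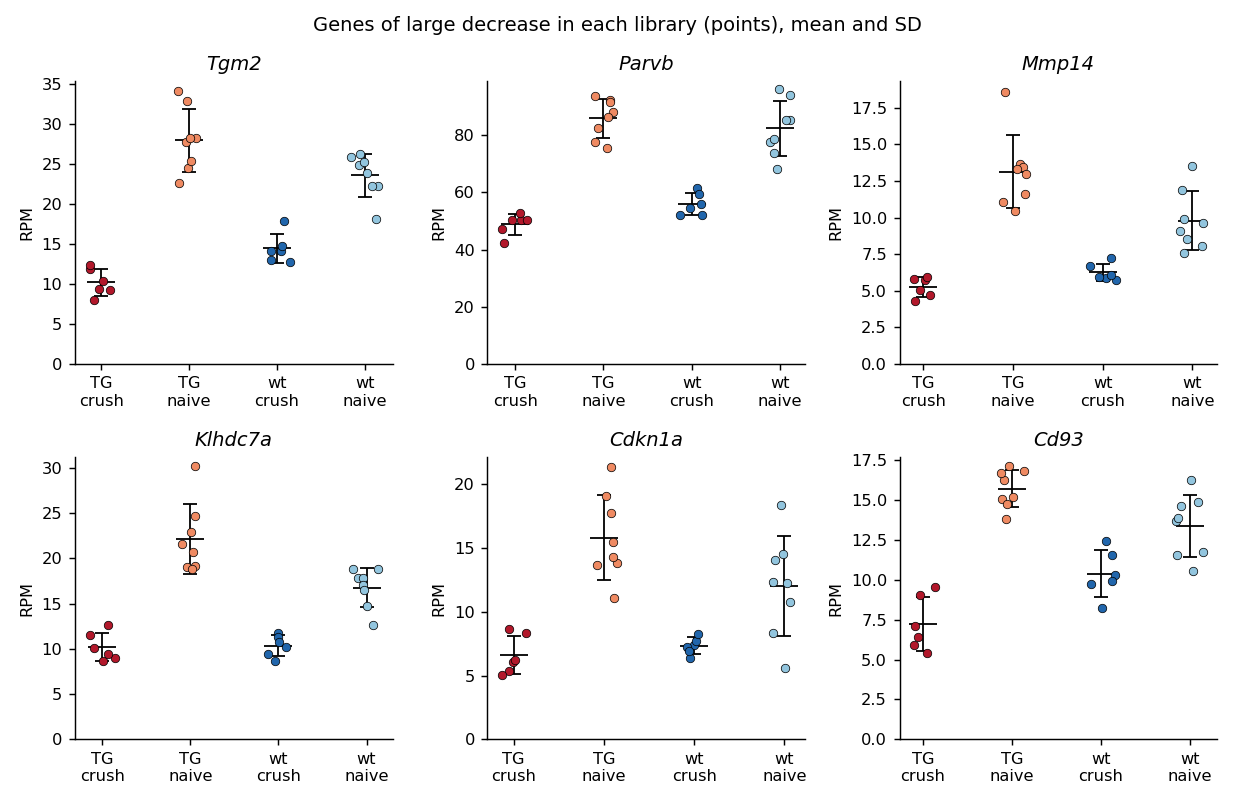
RPM of 6 genes lower after crush in each library (points) of the TG crush, TG naive, wt crush and wt naive groups, with the mean (long line) and SD (whiskers). For Tgm2, Parvb and Mmp14 all crush libraries lie below all naive libraries, and for Cd93 and Cdkn1a the wt groups overlap.

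Slc13a3, a dicarboxylate transporter gene, had the largest fall in wt rats among these genes. It was at 19.8 to 48.4 RPM in TG crush (median 31.2), 35.5 to 80.1 in TG naive (median 57.4), 19.6 to 37.3 in wt crush (median 20.9) and 36.3 to 66.0 in wt naive libraries (median 52.6). Both genotypes overlapped, the wt groups through a single crush library. The log2 change was -0.95 (SE 0.14, limma adjusted p = 7.47e-05), -0.79 in TG and -1.11 in wt rats. Bc1, a noncoding RNA of neuronal dendrites, fell by 0.66 (SE 0.13, limma adjusted p = 0.00189), and Tmem140, a membrane protein gene, by 0.65 (SE 0.08, limma adjusted p = 1.42e-05). The complement genes C1s (-0.62, limma adjusted p = 0.0169) and C3 (-0.71, adjusted p = 0.0471) overlapped in both genotypes, and C3 lost its call in 25 of 40 alternatives.

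Genes of the extracellular matrix, taken as a list, were lower too: 15 of 40 tested fell and 0 rose, against 9.45% lower and 3.54% higher of all genes, with a median log2 change of -0.18. The basement membrane collagen gene Col4a1 was at 33.9 to 48.4 RPM in TG crush (median 42.8) and 51.6 to 78.7 in TG naive libraries (median 62.9). Its wt crush libraries were at 42.9 to 51.6 RPM (median 45.0) and its wt naive libraries at 48.5 to 75.2 (median 63.6). TG libraries separated, wt libraries overlapped at the edge, and the log2 change was -0.50 (SE 0.06, limma adjusted p = 1.39e-05). Its partner Col4a2 (-0.39, SE 0.06, limma adjusted p = 0.000143) fell as well. Of 23 focal adhesion genes 6 fell, the actin regulator Vasp (-0.30) among them, against 9.45% of all genes. The 1 that rose is near the 3.54% of all genes. Without the 5 libraries high in Slc17a7 the lower counts were 7 matrix and 1 focal adhesion genes, against 436 of 16605 genes in that fit.

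Endothelial markers were lower for 9 of 21 tested, against 9.45% of all genes, with a median log2 change of -0.16. They included Tek (-0.27), the receptor of angiopoietins, and the junction gene Pecam1 (-0.25). Their summed level was 889 to 1249.7 RPM in TG crush, 1006 to 1194 in TG naive, 919 to 1093 in wt crush and 919 to 1193 in wt naive libraries, so the ranges overlapped. The count was 5 without TG crush replicate 220 or without TG crush replicate 222. Of 9 tested pericyte and smooth muscle markers 1 fell, which is near that share.

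Astrocyte markers fell in 11 of 22, against 9.45% of all genes. All 22 had a negative log2 change, against 9502 of 16742 genes tested, with a median of -0.18. Cldn10 (-0.24, SE 0.04, limma adjusted p = 0.000541), the gap junction gene Gjb6 (-0.28, SE 0.06) and Mlc1 (-0.27, SE 0.05), a membrane protein of astrocyte endfeet, were among them. The summed level of the list was 10756 to 15033 RPM in TG crush, 12689.8 to 15483 in TG naive, 11706 to 12787 in wt crush and 11825 to 16153 in wt naive libraries. Without the 5 libraries high in Slc17a7 3 of the 22 fell, against 436 of 16605 genes in that fit. With the spiny neuron covariate 5 fell, against 764 of 16742 genes. The spiny neuron markers, whose median log2 change was 0.01 in TG and 0.43 in wt rats, were not tested further as a part of these counts.

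Oligodendrocyte markers fell in 1 of 19, below the 9.45% of all genes. Of 6 markers of oligodendrocyte precursors 0 were called by limma or limma-voom, and 1 was lower at an unadjusted p under 0.05. Microglial markers fell in 7 of 21, with a median log2 change of -0.21. The complement genes C1qb (-0.32, SE 0.07) and C1qc (-0.33, SE 0.07), the receptor gene Gpr84 (-0.44, SE 0.08) and the signalling adaptor Tyrobp (-0.41, SE 0.10) were among them. C1qb was at 33.1 to 47.2 RPM in TG crush (median 40.6), 42.6 to 60.3 in TG naive (median 52.4), 33.9 to 42.5 in wt crush (median 37.5) and 37.9 to 54.2 in wt naive libraries (median 45.5). Crush medians were lower in both genotypes and the ranges overlapped. The count was 11 without wt naive replicate 196, 14 without TG crush replicate 223 and 2 without the 5 libraries high in Slc17a7. Interferon-induced genes fell in 4 of 19, among them the membrane protein gene Bst2 (-0.52, SE 0.11), and inflammatory mediators in 4 of 13, among them Tgfb1 (-0.27, SE 0.07), against 9.45% of all genes. All 11 genes of antigen presentation tested had a negative log2 change, against 9502 of 16742 genes tested. Only 1 of the 11 passed, the peptide transporter gene Tap2 (-0.27, SE 0.06), which is near the 9.45% of all genes. The interferon count was 2 without any single library of wt naive replicates 197 and 201, wt crush replicates 206, 207 and 209, TG naive replicate 193 and TG crush replicates 220 and 222, and 7 without TG crush replicate 223. A count of 2 of 19 is near the 9.45% of all genes in the full fit. In the fits with that count, lower genes ran from 902 of 16737 (without TG crush replicate 222) to 1266 of 16716 (without wt crush replicate 206). The inflammatory count was 2 without TG crush replicate 222. Without the 5 libraries high in Slc17a7 the interferon count was 1, and no inflammatory mediator passed. Over all genes 436 of 16605 were lower in that fit.

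Cytosolic ribosomal protein genes fell by a small and even amount. Of 79 tested, 64 fell and 0 rose, against 9.45% lower and 3.54% higher of all genes. All 79 had a negative log2 change, against 9502 of 16742 genes tested, between -0.30 and -0.04 with a median of -0.17. The small subunit contributed 28 of 32 and the large subunit 36 of 47. In 55 of the 64 the unadjusted p was under 0.05 with the same sign in each genotype, and the medians were -0.17 in both TG and wt rats. Rpl30, a large subunit gene, was at 39.5 to 54.8 RPM in TG crush (median 43.7), 47.3 to 59.8 in TG naive (median 54.1), 34.6 to 48.1 in wt crush (median 43.7) and 45.4 to 63.2 in wt naive libraries (median 55.9). Its ranges overlapped in both genotypes, and the log2 change was -0.30 (SE 0.06, limma adjusted p = 0.00147). The summed level of the 79 genes was 6009 to 7906 RPM in TG crush (median 6716), 6772 to 8057 in TG naive (median 7727), 6261 to 7238 in wt crush (median 6685) and 6600.2 to 8184 in wt naive libraries (median 7456). Several of these genes have many pseudogene copies, so their counts are uncertain.

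The ribosomal count depended on the libraries used. It was 42 without TG crush replicate 222, 74 without TG crush replicate 223, 35 with the spiny neuron covariate and 15 without the 5 libraries high in Slc17a7, while the median log2 change stayed between -0.13 and -0.19 in these and in the rescaled fits. Over all genes, 902 of 16737 were lower without TG crush replicate 222 and 2246 of 16714 without TG crush replicate 223. With the covariate 764 of 16742 genes were lower, and without the 5 libraries 436 of 16605. Nuclear genes of the respiratory chain had 11 lower and 1 higher of 75, near the 13.0% called over all genes, with a median of -0.05. Ndufa8 (-0.18, SE 0.04) and Uqcr10 (-0.15, SE 0.03), subunits of complexes I and III, were among the lower. Their lower count was 4 to 7 without any single library of wt naive replicates 197 and 198, wt crush replicates 206, 207, 209 and 210, TG naive replicates 190, 191 and 193 and TG crush replicates 214, 220 and 222. It was 19 without TG naive replicate 188 and 17 without TG crush replicate 226.

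**Figure D4:**
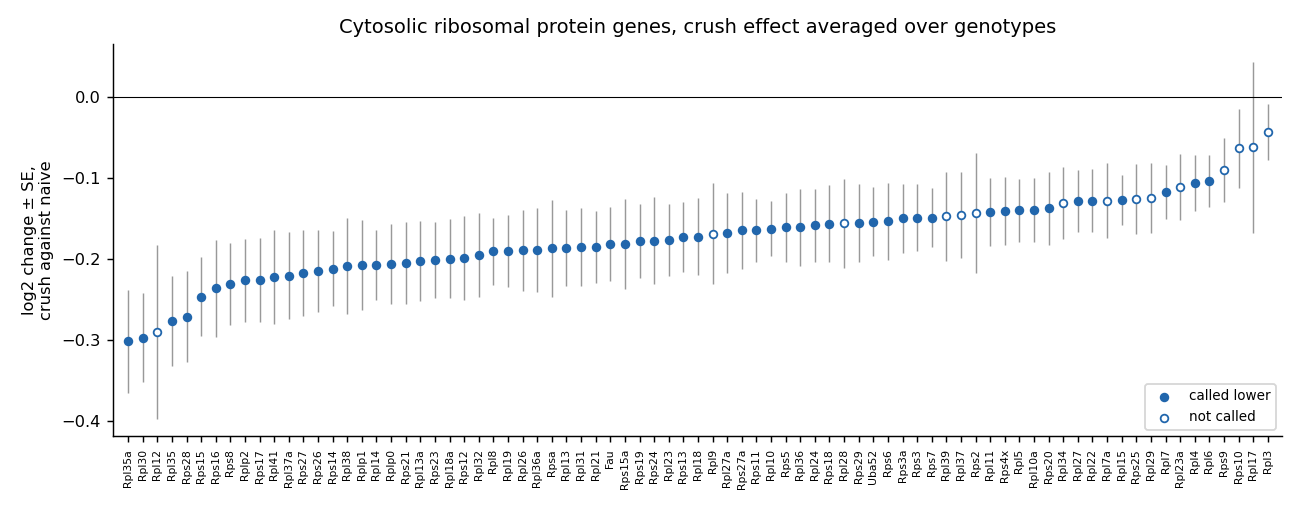
Log2 change of crush against naive, averaged over both genotypes, for the 79 cytosolic ribosomal protein genes in order of their change, with SE bars. Filled points are called lower (64) and open points are not called (15). All lie below 0.

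The genes that fell were shorter than those that rose: the median span with introns was 33.5 kb for the higher calls, 10.3 kb for the lower calls and 19.9 kb for all genes tested. Pseudogenes were 4.22% of the higher calls, 11.6% of the lower calls and 7.16% of all genes tested. Because the deposited values are per span, a minimum on RPKM leaves out long genes. Below a minimum of 0.5 RPKM in 6 libraries were 5761 of the genes tested here, and 563 of these (9.77%) were called, Arntl among them.

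Gh1, which encodes growth hormone, a product of the pituitary, had the largest increase of any gene tested, at a low level. It was at 0.596 to 41.9 RPM in TG crush (median 2.21), 0.026 to 17.3 in TG naive (median 0.996), 0.349 to 32.5 in wt crush (median 8.34) and 0 to 2.04 in wt naive libraries (median 0.0617). The ranges overlapped in both genotypes. Its log2 change was 2.33 (SE 0.56, limma adjusted p = 0.00992), and from 1.46 to 4.20 over the alternatives, since the value depends on the pseudocount. Prl, the prolactin gene, had a log2 change of 1.46 (SE 0.39, limma adjusted p = 0.0165). Of 11 pituitary markers 5 were tested and these 2 passed. Of the 5, 4 had a positive log2 change and 1, Lhb, a negative one (-0.37). Lhb had lower medians with crush, 1.10 against 1.94 RPM in TG and 1.32 against 1.53 in wt rats. Neither Gh1 nor Prl was called within either genotype alone. Gh1 changed by 1.28 (SE 0.80) in TG and 3.38 (SE 0.80) in wt rats, and Prl by 1.01 (SE 0.55) and 1.91 (SE 0.55). Median Prl was 0.546 RPM in TG crush, 0.104 in TG naive, 1.79 in wt crush and 0.0152 in wt naive libraries. The summed level of the list was 4.25 to 80.5 RPM in TG crush, 4.56 to 40.8 in TG naive, 4.18 to 185 in wt crush and 3.07 to 8.22 in wt naive libraries. Most of the highest wt crush sum was Pomc, another gene of the list, at 166 RPM against a median of 2.62 in that group.

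Of the other lists, nerve injury and regeneration genes had 1 call among 22 tested, below the 13.0% of all genes, Jun (-0.20, limma adjusted p = 0.0472), which was lost in 24 of 40 alternatives. Among 15 ionotropic glutamate receptor genes 2 rose and 1 fell, against the same 13.0%, with Grik5, a kainate receptor subunit gene, at 0.28 (SE 0.05, limma adjusted p = 0.00141). Of 25 glucocorticoid-responsive genes 2 rose and 4 fell, against 3.54% higher and 9.45% lower of all genes. Of 16 torsin and nuclear envelope genes 0 rose and 3 fell, against the same shares. These counts are small, and no list was tested. The torsin list's lower calls included Tor1aip1 (-0.14, SE 0.04), which encodes the torsin cofactor LAP1. Epm2a, the gene of laforin, a glycogen phosphatase, rose by 0.47 (SE 0.06, limma adjusted p = 3.45e-05) in both genotypes, 0.51 in TG and 0.43 in wt rats.

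**Figure D5:**
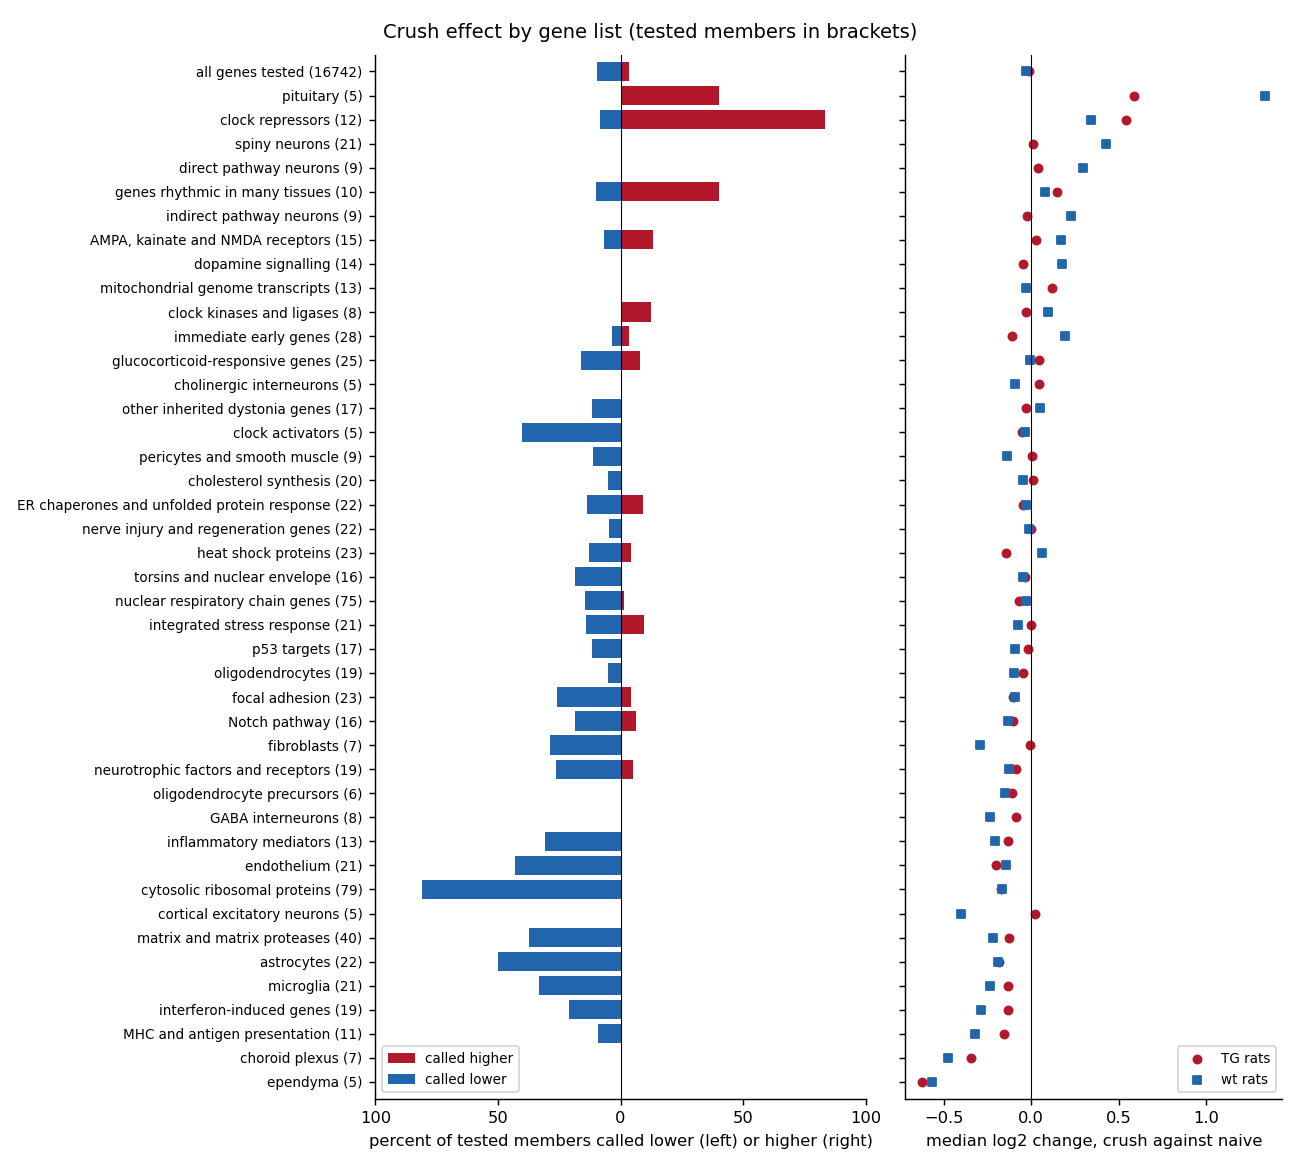
For each gene list (number of tested members in brackets), the percent of members called lower (left of 0) or higher (right of 0) for the averaged crush effect, and the median log2 change in TG (circles) and wt rats (squares). Clock repressors stand out to the right with 10 of 12 called higher, ribosomal proteins to the left with 64 of 79 called lower, and spiny neuron markers have a median of 0.01 in TG and 0.43 in wt rats.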

How the data were processed

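Stranded mRNA libraries of 28 striatal samples were read from a single end over 75 nt, per the labels' protocols. There were 2 runs, and no source used here assigns the libraries to them. Per the submitters' processing notes, the tools were STAR 2.6.1a, featureCounts of Subread 1.6.3 and DESeq2 1.22.2, and the genome build was Rnor_6.0. The deposited table holds RPKM values for 39538 genes with decimal commas, for which reason its unit was recorded as other. The lengths behind these RPKM are gene spans with introns.

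RPKM times length in kilobases gave RPM, and these were whole multiples of 1 read in 100% of values within 0.02. The libraries held 29151455 to 38407359 assigned reads, and 3 reads, the limit that a count of 0 allows, came to 0.0781 to 0.103 RPM, for counting error only. The human TOR1A transcript stood at 102 to 139 RPM in TG crush, 129 to 144 in TG naive, 0 to 0.447 in wt crush and 0 to 0.972 in wt naive libraries.

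A single fit of log2 (RPM + 0.5) on the 4 groups with limma 3.58.1 in R 4.3.3, with variances that follow the mean, gave the contrasts, with Benjamini-Hochberg adjustment over the 16742 genes tested. The script was tested on simulated data with known changes. Genes at the threshold were Tmem129 (log2 change -0.14, adjusted p = 0.04997) just inside and Mbnl1 (0.13, adjusted p = 0.05007) just outside. The members and all 45 gene lists, of whose 859 entries 824 were in the table, were chosen with earlier results of these data known. Genes were named as the calls with the largest change, up to 12 in each direction, where the mean was at least 3 RPM and the sign the same in both genotypes, the 6 of lowest p in each direction, all clock genes, up to 4 members of lowest p per list with a call, and interaction calls. Genes named outside the rule are marked as such in the text. Promoters came from RefSeq (GRCr8). Alternatives were pseudocounts of 0.1 and 2, no filter, quantile normalization, median-of-ratios rescaling, a minimum of 5 RPM in 14 libraries, limma-voom on the whole reads, robust variances, array weights, log2 (RPKM + 0.1), the spiny neuron level as a covariate and each library left out. Leaving out the 5 libraries with over 20 RPM of Slc17a7 was chosen after seeing the data. Plots used matplotlib 3.10.9 (Python 3.11.15).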

Additional observations from a re-analysis of the deposited data

Results flagged for a closer look

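In 39 named genes and the spiny neuron marker level, each of the 4 groups was searched on the log2 scale for a library far from the others of its group, and 9 of 160 groups held such a library, where chance gives about 1 in 20. They fell in 9 different genes and 9 different libraries. The lowest library stood apart for Arntl in TG crush (replicate 223, 15.5 RPM, the others 22.5 to 25.4), Bc1 in TG crush (replicate 222, 31.7 RPM, the others 53 to 69.9), Cry2 in wt crush (replicate 203, 156 RPM, the others 169 to 172), Rorb in wt crush (replicate 207, 45.4 RPM, the others 50.2 to 51.4), Epm2a in wt naive (replicate 201, 3.06 RPM, the others 4.18 to 5.42) and Tgm2 in wt naive (replicate 199, 18.1 RPM, the others 22.2 to 26.2). The highest library stood apart for Slc13a3 in wt crush (replicate 210, 37.3 RPM, the others 19.6 to 22.5), Mmp14 in TG naive (replicate 190, 18.6 RPM, the others 10.5 to 13.6) and Gh1 in wt naive (replicate 202, 2.04 RPM, the others 0 to 0.178). Of these libraries, TG naive replicate 190 and wt naive replicates 199 and 202 were also over 20 RPM in Slc17a7.

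The crush effect of Nr1d2 differed between the genotypes: 0.83 in TG and 0.36 in wt rats, a difference of 0.48 on the log2 scale (limma adjusted p for the interaction = 0.00746). It held with each single library left out, with adjusted p between 0.00169 and 0.0260, and in the other alternatives except that without the 5 libraries high in Slc17a7.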

How the results depend on the processing

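No paired analysis was possible because the groups share no replicate numbers. Calls numbered 2174 in all, 592 higher, 1582 lower and 1096 in both genotypes. The total stayed within 1.5 times with pseudocounts of 0.1 (2180) and 2 (2174), with the stricter filter (1955), limma-voom (2161), robust variances (2140), RPKM (1771), no filter (1497) and both rescalings. Higher calls were 363 with no filter, 1066 with median-of-ratios rescaling and 977 with quantile normalization. Array weights gave 4678 calls (2004 higher, 2674 lower, 2230 in both genotypes) and 2 interactions. The spiny neuron covariate gave 1068 (304 higher, 764 lower, 404 in both genotypes). Without the 5 libraries high in Slc17a7 there were 574 (138 higher, 436 lower, 412 in both genotypes), and the interaction count was 0 with limma, with 627 genes at an unadjusted p under 0.05. The cause was not tested. With 1 library left out, the total ran from 1166 to 3802, higher calls from 264 to 1556, lower calls from 902 to 2246, calls in both genotypes from 693 to 1726 and interactions from 1 to 5. The lowest of the first 4 counts was without TG crush replicate 222 and the highest without TG crush replicate 223. Higher calls also fell by more than 1.5 times without wt naive replicate 197, wt crush replicates 206, 207, 209 and 210, TG naive replicates 191 and 193, and TG crush replicates 214 and 220. Interactions were 2 without TG naive replicate 187 or TG crush replicate 219, 3 without TG crush replicate 223 and 5 without TG crush replicate 214. Of 110 named calls, 62 held without the libraries high in Slc17a7, 78 with the covariate, 97 with quantile normalization, 99 with median-of-ratios rescaling and 88 with no filter, and none changed sign. Among genes not called, Clock had a log2 change of -0.0057 with the covariate, Rorb had 0.0133 with median-of-ratios rescaling, 0.0466 with the covariate, 0.0229 without the libraries high in Slc17a7 and -0.0340 to 0.00354 with 1 library left out, and Cirbp had -0.0141 to 0.0542 with 1 library left out, below 0 without TG crush replicate 214 or 223. Depth limits genes near 0.1 RPM, such as Gh1 and Prl in wt naive libraries.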
